A study of Mus musculus with 2 samples.

Results

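Transcripts of Zfp genes, the mouse genes named zinc finger protein with a number, were examined among the RNAs recovered with YTHDF2 from myotubes. Members were the rows of the authors' table of peaks assigned to genes whose symbol begins with Zfp and a digit, so Zfpm2 was left out. There were 43 such genes with 52 peaks, of 1285 genes with 1541 peaks in the table and 9271 peaks in the whole list. The cells were wild-type C2C12, a mouse myoblast line, moved to 2% horse serum at 90% confluence and kept there for 4 to 5 days with no other treatment, until they had fused into multinucleated myotubes. RNA immunoprecipitation (RIP) with an antibody to YTHDF2 gave 1 library and the input gave 1 library, both of batch 1. With no replicate there was no test, and no difference below was set against the spread between samples. Setting RIP against input addresses which RNAs YTHDF2 was bound to. Among markers of the labelled cell type, 5 of 16 myotube genes had a peak in the table (Mylpf, Tnnt1, Tnni2, Neb and Mef2a), beside 5.76% of all protein-coding genes. Other myotube genes had none, among them Myog, Myh3, Acta1, Ckm and Des. No peak lay over any of 8 neuronal, 5 immune or 5 hepatocyte genes. As 15.0% of all protein-coding genes had a gene body peak, lists this short can easily hold none. These counts are no check of cell identity. The table shows binding over input and not the level of a transcript, so a gene with no peak may be bound and lowly expressed, not bound, or not expressed.

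YTHDF2 reads N6-methyladenosine (m6A), a mark placed on messenger RNA within the consensus DRACH and often near stop codons, and brings the bound RNA to the deadenylation machinery. Most Zfp genes encode C2H2 proteins, in which each finger is folded around a zinc ion by a pair of cysteines and a pair of histidines and reads a few bases of DNA. Fingers follow each other in tandem, joined by a short conserved linker. Many of these proteins carry a KRAB domain at the amino end that recruits TRIM28 and SETDB1 to silence chromatin, often at transposable elements, and their genes lie in tandem arrays in which neighbours are recent copies of each other. The symbol also covers other proteins: SCAN domain factors such as Zfp24, Zfp397 and Zfp449, the CCCH protein Zfp36l1, which binds AU-rich elements and hastens RNA decay, and single proteins of splicing, mitosis and ubiquitin signalling.

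The sequences under the peaks show what such binding lies on. A set of 3 coding peaks is printed here because they lie within finger arrays: Zfp729a at chr13:67619945-67620153 (minus strand), Zfp65 at chr13:67708393-67708608 (minus strand) and Zfp160 at chr17:21026845-21027061 (plus strand), in mm10. Each is the whole peak on the strand of the gene, 5′ to 3′, with codons of C2H2 fingers in capitals and linkers in lower case.
Zfp729a: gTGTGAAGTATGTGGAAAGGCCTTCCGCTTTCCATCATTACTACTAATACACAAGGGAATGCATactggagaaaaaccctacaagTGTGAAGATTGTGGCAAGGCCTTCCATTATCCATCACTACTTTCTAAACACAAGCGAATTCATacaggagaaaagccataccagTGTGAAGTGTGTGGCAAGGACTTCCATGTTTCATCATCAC
Zfp65: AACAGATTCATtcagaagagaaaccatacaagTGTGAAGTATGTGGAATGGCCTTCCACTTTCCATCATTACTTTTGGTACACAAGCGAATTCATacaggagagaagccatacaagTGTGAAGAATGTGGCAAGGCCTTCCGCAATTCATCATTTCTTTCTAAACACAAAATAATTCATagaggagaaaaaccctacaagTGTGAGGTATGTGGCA
Zfp160: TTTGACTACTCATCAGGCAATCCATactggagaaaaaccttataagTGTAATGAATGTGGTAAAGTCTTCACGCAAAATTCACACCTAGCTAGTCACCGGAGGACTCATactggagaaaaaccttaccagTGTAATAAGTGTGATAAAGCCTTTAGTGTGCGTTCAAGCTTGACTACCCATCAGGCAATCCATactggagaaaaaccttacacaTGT
Fingers took up 166 of 209 bases of the Zfp729a peak, 153 of 216 of the Zfp65 peak and 154 of 217 of the Zfp160 peak. The linker codons recur in all 3 genes with few changes.

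Short sites are printed next because GGACH (H is any base but G) is the form of DRACH at which m6A is most often found. Each site is 21 bases on the strand of the gene in mm10, and capitals mark the 5 bases of the match nearest to the summit. They are from the peak of highest fold, Zfp748 (chr13:67539418-67539438, minus strand), from Zfp229 (chr17:21733824-21733844, plus strand) and from the CCCH gene Zfp36l1 (chr12:80108097-80108117, minus strand). The others are from Zfp874b (chr13:67473059-67473079, minus strand) and Zfp959 (chr17:55898767-55898787, plus strand).
Zfp748: tcacccctGGACTggtggtcc
Zfp229: tgggccaaGGACActgcccag
Zfp36l1: cacaggtaGGACTgagaatgt
Zfp874b: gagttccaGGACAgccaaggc
Zfp959: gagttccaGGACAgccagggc
The sites of Zfp874b and Zfp959, 2 genes on different chromosomes, differed at 1 base (A18G, counted from 1 at the 5′ end, Zfp874b first). All 21 bases of both were masked as repeat in the reference. The 14 bases from position 3 to 16 occurred on either strand in 35 of 1489 peaks of other genes and in no other Zfp peak. A match is a description of the letters and not a mapped m6A site.

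Zfp genes made up 43 of 394 annotated protein-coding Zfp genes, or 10.9% (Wilson 95% interval 8.20 to 14.4, for counting of genes only). Of 21911 protein-coding genes in all, 5.76% had a peak in the table. With a fold enrichment of 4 or more, 25 Zfp genes had a peak where 2.14% of all protein-coding genes did, and with −log10 q of 5 or more, 34 did where the share over all was 4.37%. At or above the median fold of the whole list, 4.40, there were 21 Zfp genes, where 1.75% of protein-coding genes had such a peak. Counted by any peak of the list within the gene body, introns included, 72 of 394 Zfp genes had a peak (18.3%, interval 14.8 to 22.4). The share over all protein-coding genes was 15.0%. The Zfp share thus stood above the background in the counts from the table. In the gene body count it was near the background, as its interval includes 15.0%. How many of the 394 genes are expressed in myotubes was not measured here, and no test of these shares was made. Of the members, 34 had 1 peak and 9 had 2 (20.9%), beside 2 or more in 209 of 1242 other genes (16.8%).

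KRAB genes and other Zfp genes entered the table at about the same share. A KRAB A-box, read as at least 8 of 10 fixed positions in the translated reference transcript, was found in 26 of the 43 members. Of all 226 annotated Zfp genes with it, 26 (11.5%, interval 7.97 to 16.3) had a peak in the table, and of 168 without it, 17 (10.1%, 6.41 to 15.6). Members had a median of 9 fingers, and Zfp genes with no peak in the table a median of 10. The median 3′ UTR was 1835 bases in members and 1075 in the other Zfp genes, and the coding sequence 1593 and 1719 bases. Whether the length of the 3′ UTR bears on having a peak was not tested.

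The height of a peak is given by the authors as the pileup, the RIP signal at the summit, and as the fold enrichment over the local input background. These scores are the authors' own. Pileup values were whole multiples of 0.9 in 100% of peaks, and 1 step was taken as 1 RIP fragment. The median fold enrichment of Zfp peaks was 4.17 (quartiles 2.71 and 4.88, range 1.71 to 9.81, n = 52 peaks), beside 3.23 (2.42 and 4.51) in 1489 peaks of other genes. Their pileup ran the other way: the median was 31.9 (quartiles 20.5 and 58.5, range 11.7 to 153.9) beside 51.3 (28.8 and 83.7). In fragments, the median Zfp peak held 35.5 and the median peak of other genes 57. The input background under the summit was 8.94 in Zfp peaks and 15 in the others. The lowest background of the whole list was 1.08, at which 466 of its 9271 peaks stood. A background under 4 was found under 16 of 52 Zfp peaks (30.8%) and 225 of 1489 others (15.1%). Zfp peaks were thus lower in signal, lower still in background, and higher in their ratio. Their median −log10 q was 7.71, beside 8.22 in peaks of other genes. The order of the median folds turned around among peaks of high fold alone. With a fold of 4 or more the median was 4.79 in Zfp peaks and 5.19 in others, and at or above the list median 5.20 and 5.49.

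Peaks at a like background had like folds in both groups. With a background under 4, the median fold was 6.33 over 16 Zfp peaks and 5.73 over 225 others. From 4 to 8 it was 4.64 (8 peaks) and 4.51 (233). From 8 to 16 it was 3.43 (15 peaks) and 3.49 (325). From 16 to 32 it was 2.47 (7 peaks) and 2.81 (339), and at 32 or more it was 2.38 (6 peaks) and 2.11 (367). In 3 of the 5 classes the Zfp median was the higher and in 2 the lower. The fold a peak needs to be listed depends on its background: under 4, the lowest fold in the table was 3.40 in other genes and 4.23 in Zfp genes, while at 32 or more the lowest were 1.30 and 1.71. Input background can read the transcript's abundance as well as any bias along it. A lowest value shared by 466 peaks need not read either. The parts of these were not tested.

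**Figure D1:**
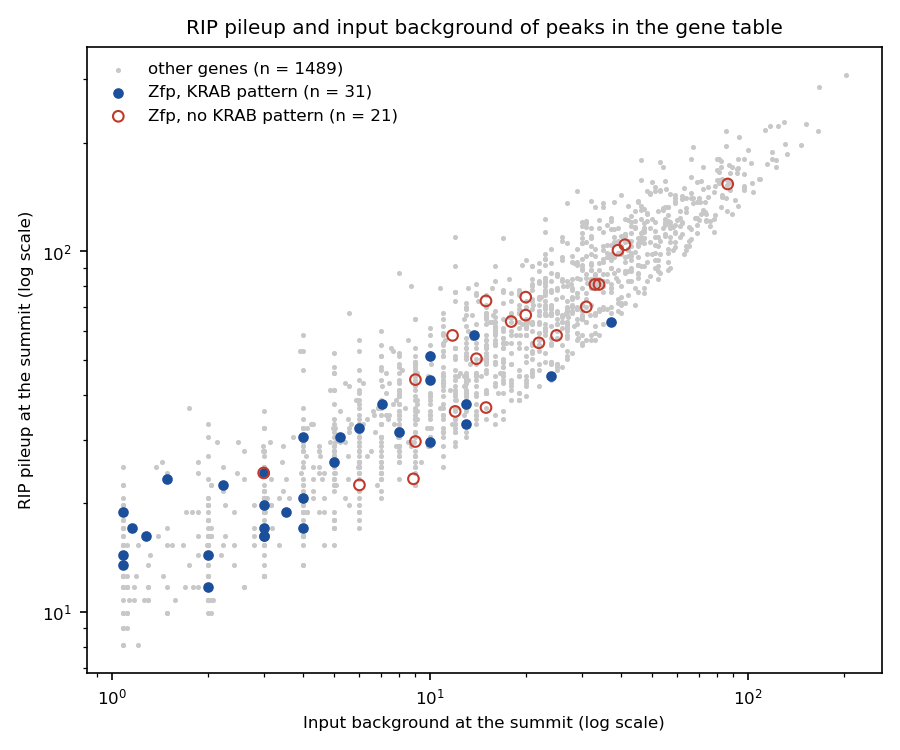
RIP pileup at the summit against the input background, both on log axes, for 1489 peaks of other genes (grey), 31 Zfp peaks of genes with the KRAB pattern (filled) and 21 of Zfp genes without it (open). The KRAB peaks sit mostly at the lower left, with a median background of 4 and a median pileup of 23.4, and the others at 18 and 58.5.

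Within the family the KRAB genes held most of the high folds. Their 31 peaks had a median fold of 4.53 (quartiles 4.07 and 6.32), a median pileup of 23.4 and a median background of 4. The 21 peaks of Zfp genes without KRAB had a median fold of 2.85 (2.41 and 3.43), a pileup of 58.5 and a background of 18. The median −log10 q ran the other way from the fold, at 7.23 in KRAB peaks and 8.44 in those without KRAB. A fold of 4 or more was reached by 24 of 31 KRAB peaks (77.4%) and by 4 of 21 others (19.0%): Zfp449, Zfp207, Zfp397 and Zfp800. The 16 Zfp peaks over a background under 4 all reached this limit, as their lowest fold was 4.23. The background differed with the fold here too, and its part in the difference was not tested.

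**Figure D2:**
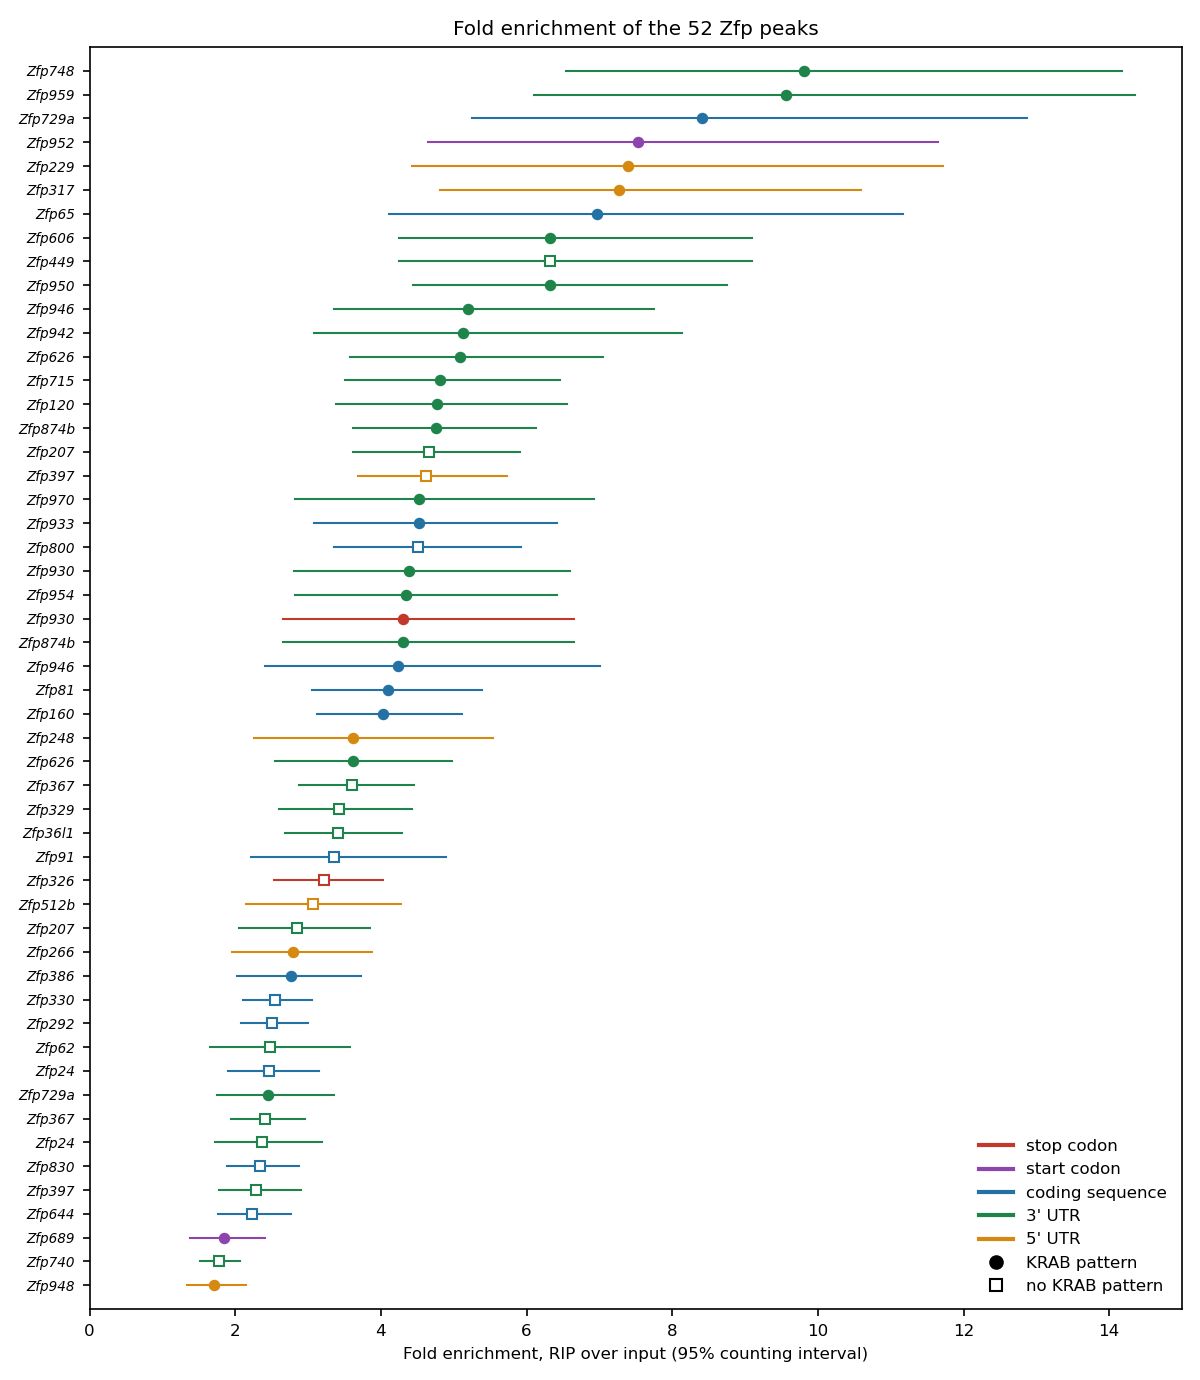
Fold enrichment of RIP over input for each of the 52 Zfp peaks (points), with the exact 95% Poisson interval of its fragments (lines), coloured by transcript element; filled circles mark genes with the KRAB pattern and open squares genes without it. Folds ran from 1.71 in Zfp948 to 9.81 in Zfp748, and all of the 10 highest folds except that of Zfp449 were in KRAB genes.

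The peak of highest fold was in the 3′ UTR of Zfp748, a KRAB gene with 23 fingers. It held 26 fragments over a background of 1.49, a fold of 9.81 (95% counting interval 6.55 to 14.2). Zfp959, with 9 fingers, followed in the 3′ UTR with 21 fragments and a fold of 9.56 (6.10 to 14.4). The coding peak of Zfp729a held 19 fragments and reached 8.41 (5.25 to 12.9). These 3 intervals overlap each other, so their order is not settled by counting. Zfp952 had its peak at the start codon, with 18 fragments and a fold of 7.53 (4.64 to 11.7). The peak of Zfp229 lay in the 5′ UTR, with 16 fragments and 7.40 (4.43 to 11.7), as did that of Zfp317, with 25 fragments and 7.27 (4.81 to 10.6). In Zfp65 the coding peak of 15 fragments gave 6.96 (4.11 to 11.2). All 7 are KRAB genes, and all rested on 26 fragments or fewer. The peaks of Zfp959, Zfp229 and Zfp65 stood over the lowest background of the list, 1.08. The next were the 3′ UTR peaks of the SCAN gene Zfp449 and of Zfp606, each with 27 fragments and 6.33 (4.25 to 9.09), and of Zfp950, with 34 fragments and 6.32 (4.44 to 8.75). By −log10 q, Zfp748 at 15.7 stood below peaks of Zfp397 at 21.1, Zfp207 at 17.2 and Zfp367 at 15.8, all without KRAB.

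The highest pileups were in genes without KRAB. Zfp740 stood at 153.9, or 171 fragments, in its 3′ UTR, over a background of 86.3, so its fold was 1.77 (1.52 to 2.06). Zfp292, a large protein of 8094 coding bases, had a coding peak with a pileup of 104.4 and a fold of 2.51 (2.08 to 3.01). Zfp330, a nucleolar protein in which no C2H2 finger was found, had one of 100.8 and 2.54 (2.10 to 3.06). Zfp830, a nuclear protein needed in the early embryo, reached 81 in its coding sequence, with a fold of 2.34 (1.89 to 2.87). Peaks were listed because they exceeded the input, so an interval above 1 was fixed beforehand. These 4 were picked by pileup and the peaks described before them by fold, so their intervals are not compared. The lowest folds of all were in the 5′ UTR of Zfp948 at 1.71 (1.34 to 2.15), in Zfp740 and at the start codon of Zfp689 at 1.84 (1.38 to 2.41). Zfp948 and Zfp689 have KRAB, and their backgrounds of 37 and 24 were the highest among KRAB peaks.

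Each of 9 genes held 2 peaks. Zfp207, a microtubule-binding protein of the kinetochore, had both in its 3′ UTR, at 4.66 (3.61 to 5.92, 65 fragments) and 2.85 (2.06 to 3.85, 40 fragments). Zfp367, with 2 fingers, had both there as well, at 3.60 (2.88 to 4.46) with a pileup of 74.7 and at 2.41 (1.95 to 2.96) with a pileup of 81. Zfp626 had 3′ UTR peaks of 5.09 (3.57 to 7.05) and 3.61 (2.55 to 4.98), and Zfp874b of 4.75 (3.62 to 6.13) and 4.30 (2.65 to 6.65). The rest paired different elements. Zfp729a added a 3′ UTR peak of 2.45 (1.75 to 3.35) to its coding peak of 8.41. The intervals of these 2 did not overlap, but they take the background as fixed. It was 13 under the 3′ UTR peak and 1.15 under the coding peak. In fragments the 3′ UTR peak was the higher, at 37 beside 19. Zfp946 had 4.23 (2.41 to 7.00, 13 fragments) in the coding sequence and 5.20 (3.35 to 7.74) in the 3′ UTR. Zfp930 had 4.30 (2.65 to 6.65) over the stop codon and 4.39 (2.80 to 6.59) in the 3′ UTR. Among the SCAN genes, Zfp397 had 4.62 (3.68 to 5.73) in the 5′ UTR and 2.29 (1.77 to 2.91) in the 3′ UTR. Zfp24, a factor of myelination, had 2.47 (1.90 to 3.15) in the coding sequence and 2.37 (1.72 to 3.19) in the 3′ UTR.

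The remaining members had 1 peak each in the table. In the 3′ UTR these were Zfp942 at 5.13, Zfp715 at 4.81, Zfp120 at 4.77, Zfp970 at 4.53, Zfp954 at 4.34, Zfp329 at 3.43, the decay factor Zfp36l1 at 3.42 (2.68 to 4.29, 71 fragments) and Zfp62 at 2.47. In the coding sequence they were Zfp933 at 4.52, Zfp800 at 4.51, Zfp81 at 4.10, Zfp160 at 4.03, Zfp91 at 3.36, Zfp386 at 2.77 and Zfp644 at 2.23. Zfp91 is a ubiquitin ligase of the NF-κB pathway, and Zfp644 works with the histone methyltransferases G9a and GLP. In the 5′ UTR they were Zfp248 at 3.62, Zfp512b at 3.07 and Zfp266 at 2.79. The only other member with a stop codon peak was Zfp326, which links transcript elongation to splicing, at 3.22 (2.54 to 4.03, 74 fragments).

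By transcript element, most Zfp peaks lay in the 3′ UTR and the coding sequence, and few touched the stop codon. Of 52 Zfp peaks, 27 lay in the 3′ UTR (51.9%, Wilson 95% interval 38.7 to 64.9), beside 44.8% of 1489 peaks of other genes. The coding sequence held 14 (26.9%, 16.8 to 40.3) beside 22.6%, and the 5′ UTR 7 (13.5%, 6.68 to 25.3) beside 9.27%. These orders depended on how peaks were classed and chosen. By the element at the peak centre, the 3′ UTR held 51.1% of 45 Zfp peaks (37.0 to 65.0) and 62.3% of 1099 others (59.4 to 65.1). The Zfp share was then the lower, but this classing has no stop codon class. Peaks that touch a stop codon, 3.85% of Zfp peaks and 16.2% of others, are counted there under the element of their centre. What they add to the change of order was not tested. The coding share was the lower in Zfp genes among peaks with a fold of 4 or more, at 25% and 28.1%, and at or above the list median, at 19.0% and 28.3%. It was the higher with −log10 q of 5 or more, at 30.6% and 20.2%. The same held by the strongest peak of each gene, at 30.2% and 21.7%, and by peak centre, at 35.6% and 29.2%. Under the 2 fold limits the 3′ UTR share was the higher in Zfp genes, at 57.1% and 38.4%, and at 61.9% and 38.8%. The start codon was touched by 2 (3.85%, 1.06 to 13.0) beside 7.19%. The stop codon was touched by 2 Zfp peaks, also 3.85% (1.06 to 13.0), and by 241 peaks of other genes (16.2%, 14.4 to 18.1). The 2 stop codon intervals do not overlap, which no other element showed; they cover the counting of peaks only, and peaks of 1 gene are not independent. Over all genes the authors' deposited table of elements listed 688 peaks in 3′ UTRs, 351 in coding sequence, 246 at stop codons, 145 in 5′ UTRs and 111 at start codons.

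**Figure D3:**
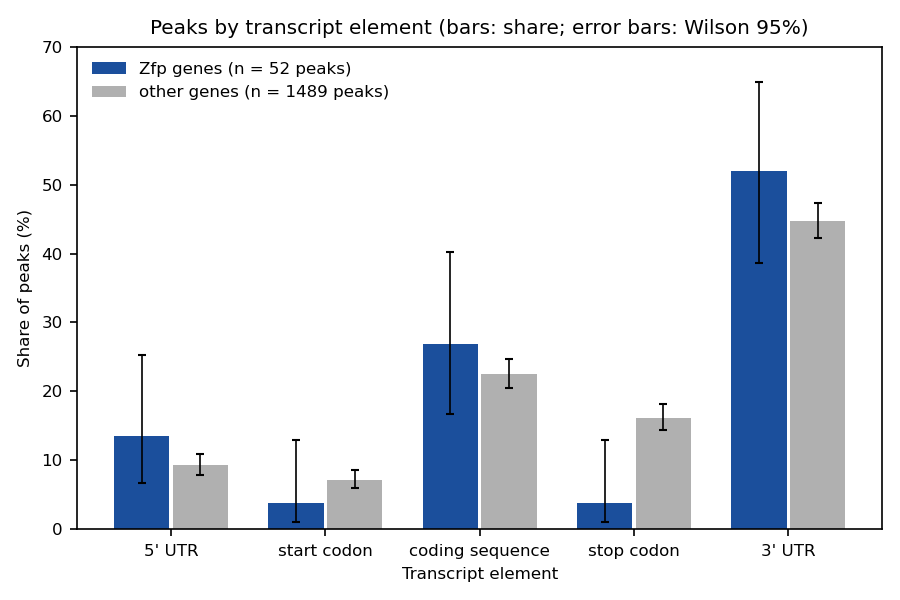
Share of peaks by transcript element for Zfp genes (52 peaks) and for other genes (1489 peaks), with Wilson 95% intervals as error bars. The stop codon share was 3.85% in Zfp genes and 16.2% in the others, and the intervals of the remaining elements overlap.

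Coding sequence was 45.0% of transcript bases in members and 45.2% in other genes of the table, and the 3′ UTR was 49.2% and 48.9%. The last exon held a median of 86.1% of coding bases in members and 11.7% in other genes of the table. Zfp genes without a peak in the table had 85.7%, since the finger array of a C2H2 gene is usually coded in 1 last exon. For 45 of the 52 Zfp peaks the centre fell inside the reference transcript, and 35 of these (77.8%) lay in the last exon, beside 800 of 1099 (72.8%) in other genes. Peak centres in the 3′ UTR lay a median of 818 bases past the stop codon in Zfp genes (quartiles 380 and 1747, n = 23) and 809 in other genes (quartiles 206 and 1663, n = 685). Peaks that touch the stop codon and are centred past it are among these, so the distances are not independent of the stop codon share. The nearest Zfp centres were those of Zfp959 at 140 bases, Zfp715 at 208 and Zfp954 at 222, and the farthest those of Zfp120 at 2491 and Zfp329 at 2607. Whether the exon structure bears on the stop codon share was not tested.

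**Figure D4:**
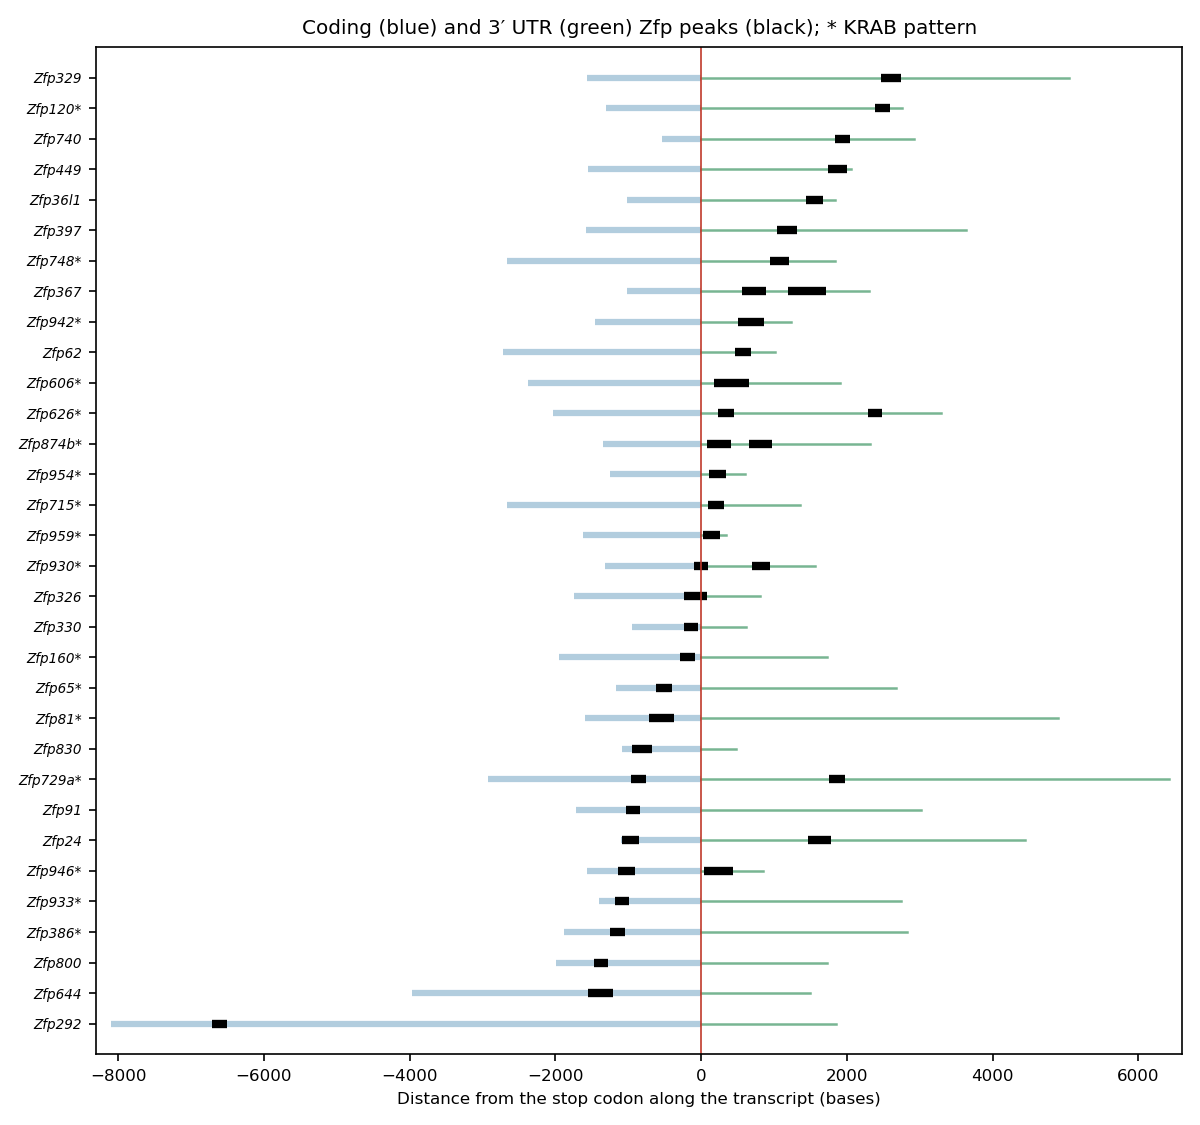
Position of 39 coding, stop codon and 3′ UTR peaks of 32 Zfp genes (black) along each transcript, in bases from the stop codon (red line); blue is coding sequence, green the 3′ UTR, and an asterisk marks the KRAB pattern. Peaks of Zfp930 and Zfp326 cross the stop codon, coding peaks reach back to position -6612 in Zfp292, and 3′ UTR peaks reach to 2607 bases after it in Zfp329.

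In the coding sequence, the peaks lay on the finger array in some genes and away from it in others. Of 18 Zfp peaks with coding bases in the reference transcript, 9 (50%, interval 29.0 to 71.0) overlapped finger codons. Finger codons made up 28.4% of the coding bases of these genes and 26.1% of the coding bases under the peaks, so the peaks held about as many finger bases as the genes did. Zfp729a, Zfp65, Zfp160 and Zfp81 were almost wholly on fingers and linkers, with 258 finger bases and 84 linker bases in the 342 bases of the Zfp81 peak. Zfp933 and Zfp800 touched 14 finger bases each, and Zfp946 and Zfp830 touched 63 and 69. Coding peaks of Zfp24, Zfp292, Zfp330, Zfp386, Zfp644 and Zfp91 overlapped none.

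Linker codons were the densest part of these transcripts in DRACH, in which D is any base but C and R is a purine. In members, linkers held 33.5 DRACH per kb (exact Poisson 95% interval 29.5 to 37.9), finger codons 18.8 (17.2 to 20.4), other coding sequence 23.8 (22.4 to 25.2) and the 3′ UTR 21.1 (20.2 to 22.1). Over all 394 annotated Zfp genes linkers held 28.1 (26.9 to 29.4) and finger codons 17.3 (16.8 to 17.8). GGACH went the other way, at 0.79 per kb (0.29 to 1.73) in the members' linkers, 1.22 (0.85 to 1.71) in their finger codons and 3.41 (2.90 to 3.99) in their other coding sequence. Zfp160 and Zfp81 had 3 DRACH each in linkers under their peaks, Zfp65 had 2 and Zfp729a had 1. Sites repeated in an array are copies of each other and not independent, and the intervals cover counting only.

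Under the peaks as a whole the motif densities were close to those of other genes. Zfp peaks held 42 GGACH on the strand of the gene, or 3.07 per kb (2.21 to 4.15), beside 2.49 (2.34 to 2.65) under 1472 peaks of other genes with a known strand. At least 1 match was present in 29 of 52 Zfp peaks (55.8%) and in 691 of the 1472 (46.9%). By element, it was present in 7 of 7 Zfp peaks in 5′ UTRs beside 58.8% in other genes, 8 of 14 in coding sequence beside 47.8%, and 12 of 27 in 3′ UTRs beside 40.8%. At start codons it was present in 2 of 2 Zfp peaks beside 54.7%, and at stop codons in 0 of 2 beside 52.5%. The wider DRACH occurred at 18.7 per kb (16.5 to 21.1) beside 17.8 (17.4 to 18.2), in 52 of 52 Zfp peaks and 96.7% of the others. The peaks with no GGACH included Zfp740, Zfp449, Zfp606 and Zfp65.

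Repeats and paralogous copies can draw reads from elsewhere, so each peak of the gene table was compared with the rest of the genome. Only the 3′ UTR peak of Zfp970 held any stretch of 100 bases found elsewhere on the chromosomes (23.1% of its 100-base windows), beside 54 of 1489 peaks of other genes (3.63%). Its element is the authors' mark, as the peak touched no exon of the reference transcript used here. The same holds for the 3′ UTR peaks of Zfp950 and Zfp207. Windows of 50 bases found elsewhere occurred in 9 of 52 Zfp peaks (17.3%) and in 14.3% of the others. These were in Zfp970, Zfp959, Zfp950, Zfp874b, Zfp626, Zfp65, Zfp81, Zfp330 and Zfp36l1. More than 50% of bases were masked as repeat in 7 Zfp peaks (13.5%) and 7.86% of others, highest in Zfp950 at 91.7% and Zfp970 at 87.8%. The peak of Zfp959, second by fold, was 63.5% masked, and what its copies elsewhere contribute to its 21 fragments was not tested.

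Zfp genes with a peak were scattered over the arrays and did not gather in them. Clusters were runs of at least 3 annotated Zfp genes with starts within 500 kb of the next, which gave 33 clusters with 238 of the 394 genes. Of the members, 25 of 43 lay in a cluster (58.1%, interval 43.3 to 71.6), beside 213 of 351 Zfp genes without a peak in the table (60.7%). In the table were 10.5% of clustered and 11.5% of unclustered Zfp genes. At least 1 member was found in 15 clusters and 2 or more in 5. The median fold was 4.45 over 32 peaks in clusters and 3.14 over 20 outside, and the pileup 27.9 and 51.3. KRAB was lacking in 14 of the 18 members outside clusters and in 3 of the 25 inside, so this split and the KRAB split largely coincide.

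The cluster on chromosome 13 at 67038596 to 67827002 (788 kb in mm10) held 23 Zfp genes, all with KRAB, and 4 members with 6 peaks. These were Zfp874b, Zfp748, Zfp729a and Zfp65, all on the minus strand, with highest folds of 4.75, 9.81, 8.41 and 6.96. The cluster on chromosome 17 at 21008903 to 23599487 also held 23 genes, 22 with KRAB, and 5 members with 6 peaks: Zfp160 at 4.03, Zfp948 at 1.71, Zfp229 at 7.40, Zfp942 at 5.13 and Zfp946 at 5.20. Folds within this 1 array thus ranged from 1.71, the lowest of all Zfp peaks in the table, to 7.40. A second run on chromosome 17, at 32765496 to 33631779, held 13 genes with Zfp952 and Zfp81 as members, and 1 on chromosome 7, at 12415153 to 12985714, held 7 with Zfp606 and Zfp329. The 3 genes at 23954692 to 24020810 of chromosome 18, none with KRAB, included Zfp397 and Zfp24 with 4 peaks.

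**Figure D5:**
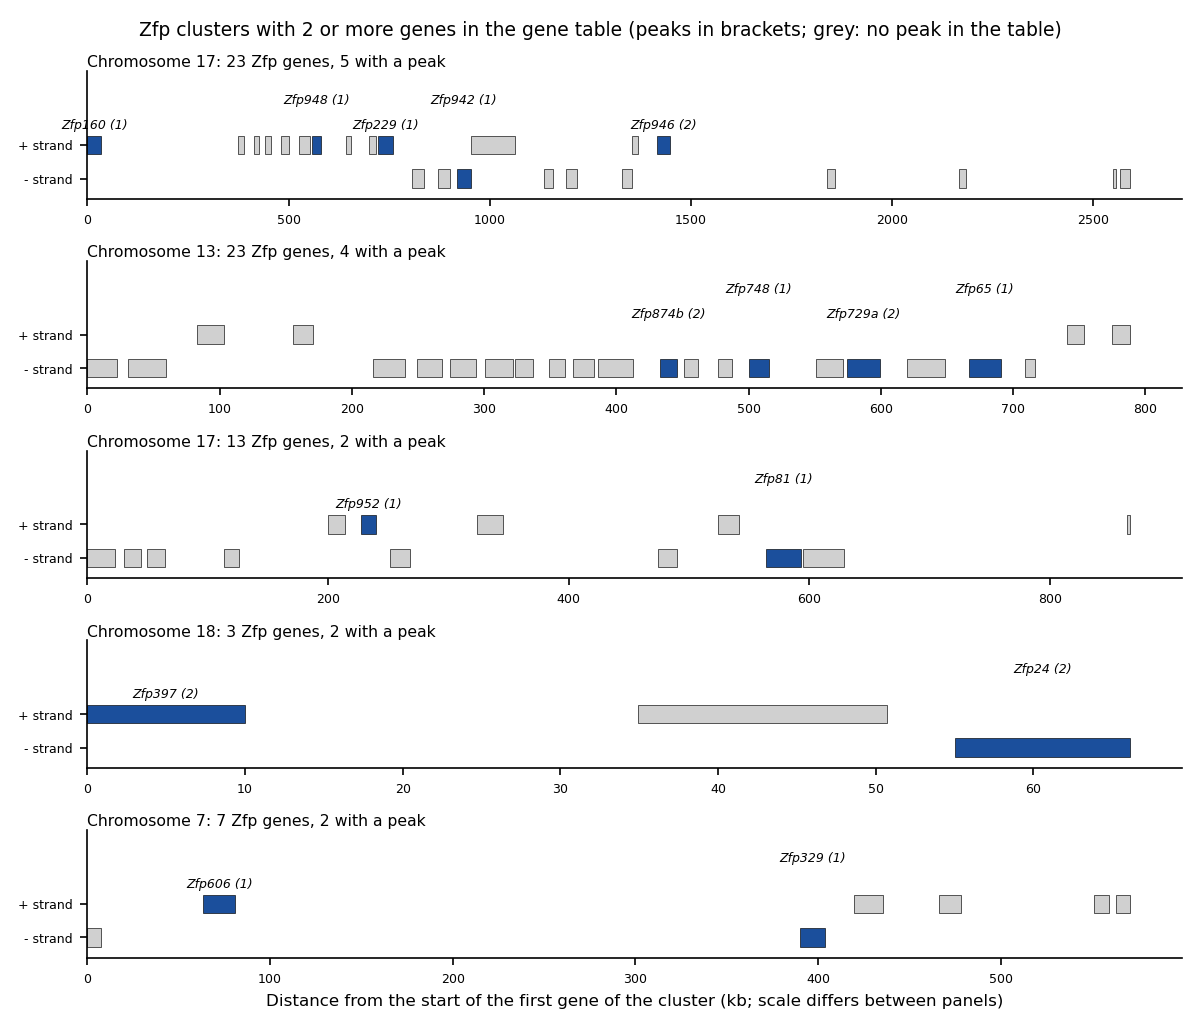
The 5 clusters with 2 or more members, drawn as distance in kb from the start of the first gene, with genes on the plus strand above and on the minus strand below, members filled and their peaks counted in brackets. In the cluster of 23 genes on chromosome 13 the 4 members lie on the minus strand with other Zfp genes between them, and on chromosome 17 the 5 members of 23 are on both strands.

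Other large arrays held few or no members. On chromosome 4, 1 of 18 genes at 145510759 to 147848366 was in the table (Zfp933), and on chromosome 7 none of 15 genes at 29768552 to 30169750 and none of 14 at 24081924 to 25227507. By chromosome, members were 8 of 46 annotated Zfp genes on chromosome 17, 5 of 36 on chromosome 13 and 6 of 92 on chromosome 7.

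Some genes of the pathway in which KRAB proteins act also had peaks. Of 24 genes of the TRIM28 and SETDB1 silencing machinery, 4 had a peak in the table (16.7%, interval 6.68 to 35.9), beside 5.76% of all protein-coding genes. Counted over the gene body, 17 of the 24 had a peak (70.8%, interval 50.8 to 85.1), beside 15.0% of all; gene length was not matched. The 4 in the table were Smarcad1, a chromatin remodeller, Fam208a and Pphln1, both of the HUSH complex, and Atrx, another remodeller. Smarcad1 had 2 peaks, at 8.13 (5.43 to 11.8) and 2.88. The others were at 3.16 (2.04 to 4.71) in Fam208a, 2.23 (1.77 to 2.77) in Pphln1 and 2.29 (1.90 to 2.73) in Atrx. Among those with peaks over the gene body alone, Setdb1 had 2. Trim28 had no peak in the table or over its gene body, nor did Daxx, Dnmt1, Uhrf1, Chd3, Rbbp4 or Ehmt2.

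Zinc finger families under other symbols varied in their share, on small counts. Beside 10.9% of Zfp genes and 5.76% of all protein-coding genes, 16.7% of Zkscan and Zscan genes were in the table (interval 7.34 to 33.6) and 3.45% of Klf and Sp genes (0.611 to 17.2). In the table were 5 of 41 Zbtb genes, 5 of 30 Zkscan and Zscan genes, 3 of 19 Zc3h genes, 2 of 13 Zcchc genes, 2 of 24 Zdhhc genes, 1 of 7 Zfand genes, 1 of 8 Zfyve genes, 0 of 8 Zmym and Zmiz genes and 1 of 29 Klf and Sp genes. The highest folds among them were 11.0 (7.47 to 15.7) in Zcchc7, 8.35 (5.92 to 11.5) in Zc3h6, 7.00 (4.80 to 9.89) in Zscan2 and 5.91 (4.52 to 7.61) in Zkscan3.

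The authors' deposited table of Gene Ontology terms counted 22 Zfp members among the 240 peak genes of metal ion binding, where 186.16 of 3066 annotated genes were expected (FDR 0.000258 as deposited). The authors' deposited table counted 11 Zfp members among the 113 peak genes of zinc ion binding, with 74.5 expected, and 12 among the 202 of regulation of transcription, with 143.53 expected. Over all terms of the authors' deposited table, 23 of the 43 members were listed at least once.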

How the data were processed

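Peaks of YTHDF2 RIP over input in C2C12 myotubes were taken as deposited, from 1 RIP and 1 input library. Alignment was to mm10 by Bowtie and peak calling by MACS, both from the series' design text. Trimming and quality tools (Trim Galore, FastQC), Picard, and the peak and coverage tools HOMER, DiffBind and deepTools are listed per the submitters' processing notes. Their versions: not given in the sources used here. Per the labels' protocols the steps after pulldown are worded for DNA. Without strand, reads of overlapping genes cannot be told apart. An IgG control named by the submitters was not analysed here.

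Per the file headers, each peak of the authors' list has a pileup signal, a fold enrichment (linear ratio to the local input), and −log10 values of p and q. The authors' deposited tables assign peaks to genes, list peaks by element with their percent, and give a p-value and FDR per Gene Ontology term. Library depth is unknown.

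Here, fragments were pileup divided by 0.9 (whole for 100% of peaks, tolerance 1e-06), and the background was solved from pileup and fold with 1 added to each. Intervals are exact 95% Poisson (fragments, motif sites) or Wilson (shares). They cover counting error only, those of folds take the input background as fixed, and PCR copies are not independent. A peak touching several elements was classed by stop codon first, then start codon, then coding sequence, then UTR. Of 1571 gene rows 1553 were matched to GENCODE M21 on GRCm38 by symbol and position. Fingers were found by the C2H2 spacing of cysteines and histidines, and linkers as at most 8 residues between fingers. Shared 50- and 100-base windows were counted over the chromosomes by exact match, tested on simulated data. Zfp genes given full values were those with 2 peaks, the extremes of fold and pileup, the top of each element, and members of clusters with 2 or more. The rest are named once. The members, lists and rules were chosen with earlier results of these data known, and the KRAB split, background classes, linker motifs and repeat windows were added after seeing the data. Scripts used Python 3.11.15, pandas 2.3.3, scipy 1.17.1, statsmodels 0.14.6 and pysam 0.24.0.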

Additional observations from a re-analysis of the deposited data

Results flagged for a closer look

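Peaks outside the authors' gene table were not used in the comparisons above, yet 95 of the 149 peaks of the whole list that lay over annotated Zfp gene bodies were of that kind. Of these, 85 lay in introns only and 10 touched an annotated exon. They fell in 36 genes, 7 of them members and 29 not. Their median fold was 5.01 and their median pileup 21.6. Their folds are over the input library, and the IgG control was not analysed here.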

How the results depend on the processing

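Of 51 alternative settings over 10 results, 36 left the value within the limit set for it and 15 moved it. The order against other genes turned around in some. Keeping folds of 4 or more left 25 genes and 28 peaks, with a median fold of 4.79 (others 5.19), a coding share of 25% (others 28.1%), a median pileup of 22.95 and finger codons under 88.9% of coding peaks. Keeping folds at or above the list median left 21 genes and 21 peaks, with a median fold of 5.20 (others 5.49), a coding share of 19.0% (others 28.3%), finger codons under 80% of coding peaks and a stop codon share of 0%. Keeping −log10 q of 5 or more gave a median fold of 4.57 (others 3.52). The higher medians follow from keeping fewer, higher peaks; the cause of the turned orders was not tested. By peak centre, which has no stop codon class, the 3′ UTR share was 51.1% (others 62.3%). Gene bodies in place of the table gave 72 genes and 149 peaks. Asking for the peak centre in a finger codon gave 16.7%, and DRACH in place of GGACH gave 18.7 per kb; both are other quantities by construction. Leaving out the 1 peak with a repeated 100-base window, chosen after seeing the data, gave 42 genes, 51 peaks, a median fold of 4.10 and a median pileup of 32.4. Of 9 genes tied for most peaks, Zfp207 was left out as first by name. A stop codon share by peak centre could not be had, since a centre is either coding or not. No paired analysis was possible because each group had 1 library. The depth of both libraries is unknown, a Zfp peak held a median of 35.5 fragments, and no value has a replicate.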

Other observations

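Introns of Zfp genes that are not in the table held some of the highest folds of the family. The highest was in an intron of Zfp280d on chromosome 9 at 72277023 to 72277317 in mm10, with 41 fragments and a fold of 12.3 (95% counting interval 8.91 to 16.6), and 11 peaks outside the table lay over this gene. Zfp638, an RNA-binding nuclear protein, also had 11 and Zfp148, a factor that binds GC-rich promoters, 10, with highest folds of 6.96 and 7.10. The next highest folds were in introns of Zfp182 at 11.3 (8.41 to 14.8) and Zfp398 at 9.99 (6.44 to 14.9). The background was low under these peaks, at 2.08 for the highest of Zfp280d, 3 for Zfp182 and 1.08 for Zfp398. Repeats and copies elsewhere were not checked for peaks outside the table. Zfp609 had 3 with a highest fold of 8.79, and Zfp568, a KRAB repressor of a placental Igf2 transcript, had 2 with a highest of 5.42. Among members, the long gene Zfp292 had 6 outside the table, with a highest fold of 3.74, beside its coding peak of 2.51. Zfp329 had 2 that touched an exon, at 5.64 (4.20 to 7.41) and 5.48 (4.31 to 6.88), beside 3.43 in the table. The highest outside was 7.47 in Zfp644 and 4.88 in Zfp948, beside 2.23 and 1.71 in the table. Of the 7 members with such peaks, only Zfp81 had a lower highest fold outside the table (3.08) than in it (4.10).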
